A study of Mus musculus with 6 samples.

Results

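Chromatin accessibility was examined at 34 genes of fibroblast growth factor (FGF) signaling in mouse oviductal muscle cells. The genes were 22 ligands (Fgf1 to Fgf18 and Fgf20 to Fgf23), 5 receptor genes (Fgfr1, Fgfr2, Fgfr3, Fgfr4 and Fgfrl1) and 7 intracellular inhibitors (Spry1 to Spry4 and Spred1 to Spred3). They were chosen by family name, with earlier results of these data known. A region was assigned to a gene where it overlapped the gene body or the 10 kb on either side of it. This gave 111 of the 66679 accessible regions of the series, and no region was shared between these genes. At least 1 region was found for 30 genes, and none for Fgf3, Fgf4, Fgf16 and Spry3.

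FGF ligands are secreted proteins that bind heparan sulfate and activate receptor tyrosine kinases, which signal through the docking protein FRS2 to the RAS and ERK cascade. The FGF11 to FGF14 ligands are kept within the cell, and FGF15, FGF21 and FGF23 circulate as hormones with Klotho proteins as co-receptors. Sprouty and SPRED proteins are induced by or act within the same pathway and restrain RAS and ERK activation, and FGFRL1 is a receptor without a kinase domain. In the female reproductive tract, FGFs are known as signals between stroma and epithelium.

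The assay was ATAC-seq, which marks open chromatin by insertion of the Tn5 transposase. It was done on primary oviductal muscle cells of female mice aged 8 to 12 weeks on day 2 of pregnancy, with 3 libraries labelled WT and 3 labelled Pbrm1 cKO. Pbrm1 encodes the bromodomain subunit BAF180 of the PBAF chromatin remodeling complex. Per the study's methods, the cKO mice carried Pbrm1 fl/fl with PR-IRES-cre, so that Cre was made wherever the progesterone receptor gene is active, and littermates with Pbrm1 fl/fl and no Cre served as controls. The study's supplement describes the 3 replicates of each genotype as biological replicates, and the sources used here do not say how many mice went into each library. Oviducts were digested, and the cells were plated and washed for some hours before collection, so that cells other than muscle may remain.

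Each library came as a list of peaks under a relaxed threshold, and each genotype as 1 list of peaks that passed an irreproducibility (IDR) filter. The 66679 regions are the merged intervals of the 2 IDR lists. Within a library, regions were ranked by the best -log10 p of any peak over them, rank 1 being the strongest, and a region without a peak took the last rank, 66679. The rank score is log2 of 66679 divided by the rank, so a difference of 1 is a rank 2 times better. The relaxed lists held 201228 to 241237 distinct intervals, and the median peak rested on 8 to 15 tags at its summit. WT library 3 stood apart with the median of 8 tags and with peaks over 63614 regions, against 65970 to 66279 in the other 5. A promoter region of Pbrm1 itself ranked 19395, 10526 and 19168 in WT and 12416, 12332 and 22222 in Pbrm1 cKO. The study's text does not name the deleted part of Pbrm1, so these ranks are no check of the genotype.

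All 5 smooth muscle markers examined (Acta2, Myh11, Cnn1, Tagln and Des) had a promoter region, as did 1 of 7 epithelial markers (Foxj1), 3 of 4 fibroblast markers, 2 of 3 endothelial markers and 2 of 3 leukocyte markers. The Foxj1 promoter region had a mean rank of 4389.5, ahead of all smooth muscle promoter regions, from 19388.5 (Acta2) to 46898.7 (Cnn1). Median best promoter ranks were 38129 for fibroblast, 32192 for endothelial and 30836 for leukocyte markers, beside 23525 for smooth muscle. No marker region differed between genotypes after adjustment (limma, smallest adjusted p = 0.144). Every Pbrm1 cKO library ranked above every WT library at 4 of 19 fibroblast (2 of them promoter regions of Pdgfra), 4 of 18 endothelial, 3 of 19 smooth muscle, 1 of 9 epithelial and 1 of 11 leukocyte marker regions, beside 10.7% of all regions. Every Pbrm1 cKO library ranked below at 0, 3, 2, 1 and 0 of them, also beside 10.7%. The part of these differences in the results on FGF genes was not tested.

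The sequences at the center of the regions that the results turn on are given first. Each is the 200 bases around the summit on the plus strand of GRCm38.p6, read for regions outside exons. Capitals mark matches on either strand to AP-1 (TGANTCA), TEAD (GGAATG), ETS (CCGGAAG), the CArG box or the CTCF core. The first group is the 3 regions with the smallest p in the comparison of genotypes, together with 2 further regions of the WT list alone at Fgf20 and Fgfr2.
Fgf5 downstream, chr5:98284126-98284325: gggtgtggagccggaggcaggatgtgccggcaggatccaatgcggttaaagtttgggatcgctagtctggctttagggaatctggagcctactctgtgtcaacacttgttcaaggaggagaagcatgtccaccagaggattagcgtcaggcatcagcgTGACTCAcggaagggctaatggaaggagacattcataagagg
Spred2 intron, chr11:19947902-19948101: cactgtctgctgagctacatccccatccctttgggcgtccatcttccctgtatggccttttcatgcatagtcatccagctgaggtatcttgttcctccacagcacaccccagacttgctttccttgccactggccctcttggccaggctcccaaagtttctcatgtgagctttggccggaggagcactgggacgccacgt
Fgf2 intron, chr3:37378516-37378715: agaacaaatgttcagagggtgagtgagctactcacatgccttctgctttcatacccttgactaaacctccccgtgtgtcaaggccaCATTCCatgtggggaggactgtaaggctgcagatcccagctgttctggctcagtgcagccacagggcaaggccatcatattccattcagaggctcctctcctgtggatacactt
Fgf20 downstream, chr8:40272421-40272620: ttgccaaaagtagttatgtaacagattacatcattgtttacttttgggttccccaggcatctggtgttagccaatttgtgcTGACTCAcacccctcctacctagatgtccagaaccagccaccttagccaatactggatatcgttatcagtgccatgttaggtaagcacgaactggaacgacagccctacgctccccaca
Fgfr2 intron, chr7:130190666-130190865: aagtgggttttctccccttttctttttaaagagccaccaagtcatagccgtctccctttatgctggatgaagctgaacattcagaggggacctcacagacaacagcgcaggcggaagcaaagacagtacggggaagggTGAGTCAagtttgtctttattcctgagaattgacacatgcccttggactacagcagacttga

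The second group is the best-ranked distal region of the ligands, the receptors, the Sprouty genes and the Spred genes.
Fgf2 intron, strongest ligand distal region, chr3:37360754-37360953: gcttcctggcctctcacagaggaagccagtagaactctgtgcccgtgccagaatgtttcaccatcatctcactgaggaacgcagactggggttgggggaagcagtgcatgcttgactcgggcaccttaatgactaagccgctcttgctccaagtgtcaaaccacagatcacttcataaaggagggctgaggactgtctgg
Fgfr1 intron, chr8:25537265-25537464: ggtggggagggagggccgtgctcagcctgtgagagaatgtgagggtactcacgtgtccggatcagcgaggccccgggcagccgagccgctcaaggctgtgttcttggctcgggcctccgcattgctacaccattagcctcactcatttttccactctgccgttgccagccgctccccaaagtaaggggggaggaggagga
Spry2 upstream, chr14:105898870-105899069: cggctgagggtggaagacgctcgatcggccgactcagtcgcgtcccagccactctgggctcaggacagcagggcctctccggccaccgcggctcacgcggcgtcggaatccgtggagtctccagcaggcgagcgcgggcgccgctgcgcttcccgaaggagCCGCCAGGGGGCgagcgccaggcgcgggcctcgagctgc
Spred2 intron, strongest Spred distal region, chr11:19979380-19979579: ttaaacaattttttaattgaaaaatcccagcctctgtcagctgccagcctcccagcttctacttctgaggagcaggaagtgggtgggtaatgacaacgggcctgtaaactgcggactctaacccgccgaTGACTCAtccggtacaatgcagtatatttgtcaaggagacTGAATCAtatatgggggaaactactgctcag

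The Spred2 region of the second group held 2 AP-1 matches, and the Fgf5, Fgf20 and Fgfr2 regions held 1 each. Not shown are an Fgf1 intron region on chromosome 18, which held 1 match, and a Spred2 intron region (chr11:19986911-19987104), which held none. Both were in the WT list alone and among the 10 regions with the smallest p. The Spry2 region had a GC content of 74.5% and held a CTCF core match. Over the same windows of all regions, 33.9% held an AP-1 match, 15.4% a TEAD match, 4.32% an ETS match, 1.15% a CArG box and 6.34% a CTCF core. CArG boxes, the element read by serum response factor in muscle genes, were not matched in any of the 68 distal windows of the FGF genes, beside 1.26% of all windows away from promoters. At so low a share, absence from 68 windows is not informative. AP-1 was matched in 22 of these 68 windows (32.4%), beside 43.2% of all windows away from promoters. Among the 34 promoter windows, AP-1 was matched in 1 (2.94%, beside 11.0% of all promoter windows) and the GC box, GGGCGG, in 16 (47.1%, beside 48.4%).

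The regions were spread unevenly over the pathway. Of the 111 regions, 34 lay within 1 kb of a start site of the gene itself (promoter regions), 9 within 1 kb of a start site of another gene only, and 68 elsewhere (distal). The ligands held 70 regions, the receptors 17, the Sprouty genes 9 and the Spred genes 15. Fgf2 had 11 regions, Fgf1 10, Spred2 8, and Fgf12 and Fgfr2 7 each. Their windows differ in length, from 21.6 kb at Fgf21 to 719 kb at Fgf14, and Fgf14 held 2 regions.

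In the IDR lists, 81 of the 111 regions were found in both genotypes (73.0%, beside 69.2% of all regions). The WT list alone held 14 (12.6%, beside a background of 13.4%), and the Pbrm1 cKO list alone held 16 (14.4%, beside 17.4%). These shares, with promoter and distal regions pooled, were near the background of each list. The Pbrm1 cKO list alone held 6 of 34 promoter regions (17.6%, beside 7.75% of all promoter regions). It held 9 of 68 distal regions (13.2%, beside 21.3% of all regions away from promoters). For the WT list alone the shares were 8.82% beside 9.16% and 16.2% beside 15.1%. No test was run on these counts. None of the 30 regions of a single list lacked a relaxed peak in every library of the other genotype, and 105 of the 111 regions had a peak in all 6 libraries. The inhibitors and receptors were mostly shared, with 15 of 17 receptor, 8 of 9 Sprouty and 12 of 15 Spred regions in both lists, beside 46 of 70 ligand regions.

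**Figure D1:**
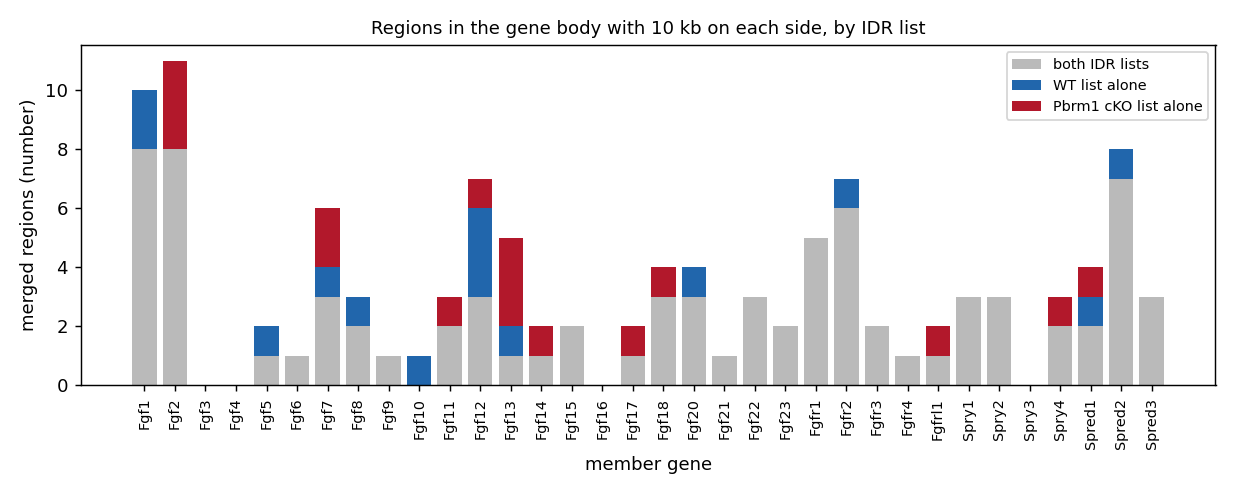
Number of accessible regions (y axis) in the window of each of the 34 genes (x axis), split by presence in both IDR lists, the WT list alone or the Pbrm1 cKO list alone. Fgf2 (11) and Fgf1 (10) have the most regions, and Fgf3, Fgf4, Fgf16 and Spry3 have none.

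Promoters of the receptors and inhibitors ranked better than those of most ligands. A promoter region was present at 13 of 22 ligands, 4 of 5 receptor genes, 3 of 4 Sprouty genes and all 3 Spred genes. The median of the mean rank of the best promoter region was 36843 for ligands, 16070 for receptors, 11789 for Sprouty genes and 14289 for Spred genes, where 17840 genes of the whole annotation with a promoter region had a median of 9516. These are descriptions of the lists, with no test between them.

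**Figure D2:**
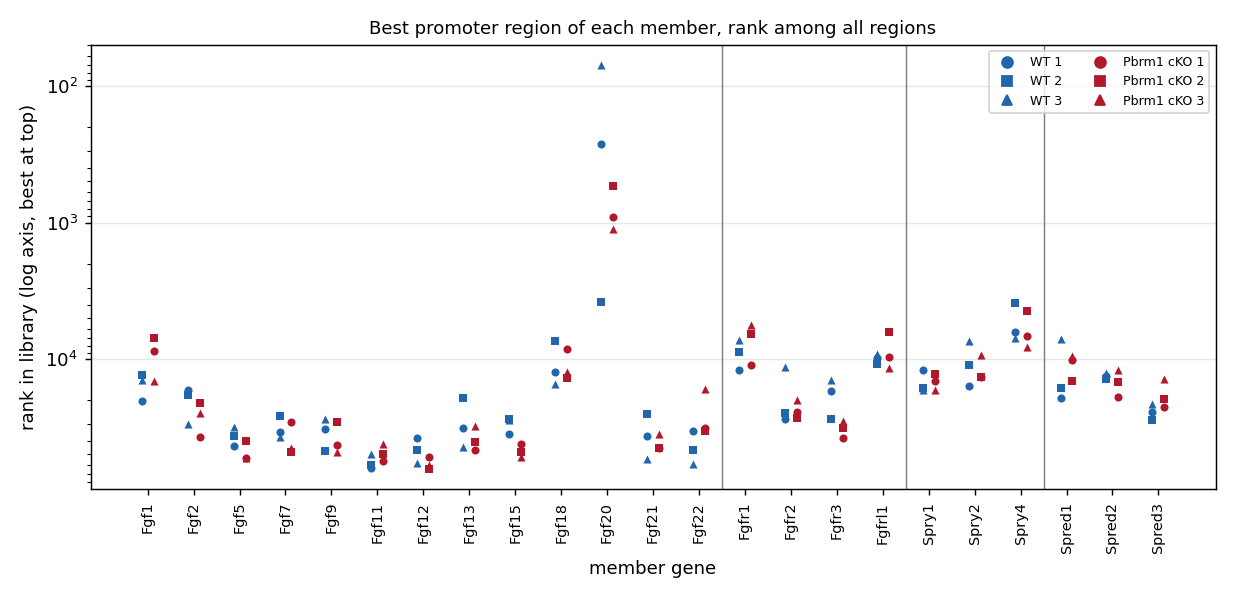
Rank of the best promoter region of the 23 genes that have one, in each of the 6 libraries (y axis, log scale, rank 1 at the top). Blue is WT and red is Pbrm1 cKO, symbols give the replicate, and vertical lines part ligands, receptors, Sprouty and Spred genes. Fgf20 lies above all others at a start site shared with Micu3 and Mir7666.

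The strongest promoter region of the ligands lay at Fgf20 (chr8:40307300-40308478), but within 1 kb of starts of Micu3 and Mir7666 too, so its accessibility cannot be assigned to Fgf20. It ranked 264, 3825 and 70 in WT and 908, 542 and 1122 in Pbrm1 cKO. The WT libraries spanned the Pbrm1 cKO libraries on both sides, and the difference of -0.99 ± 1.11 (SE) was smaller than its error. It turned to 0.29 without WT library 3 and was -2.59 without WT library 2.

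Fgf18, a ligand of the FGF8 subfamily, followed with a promoter region at chr11:33147686-33148689. It ranked 12378, 7389 and 15150 in WT and 8460, 13730 and 12476 in Pbrm1 cKO, with fully overlapping genotypes. Fgf17 and Fgf8, the other members of that subfamily, had no promoter region of their own. The 2 regions near Npm3, upstream of Fgf8, and the 1 at Dmtn, downstream of Fgf17, belonged to start sites of those genes.

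Fgf1 and Fgf2, the ligands of the FGF1 subfamily, held 21 of the 70 ligand regions. Fgf1 had 2 promoter regions with differences of opposite sign. The region over an exon (chr18:38928761-38929349) ranked 31917, 21004 and 21001 in WT and 39949, 46650 and 37987 in Pbrm1 cKO, below every WT library. The difference was -0.78 ± 0.31 (SE, limma adjusted p = 0.233). The stronger region upstream (chr18:38930378-38930717) ranked 20220, 13092 and 14205 in WT and 8784, 7040 and 14533 in Pbrm1 cKO, a difference of 0.69 ± 0.37 (limma adjusted p = 0.372). Here the third Pbrm1 cKO library lay among the WT libraries, and the contrast between both regions was not tested.

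The Fgf2 promoter region (chr3:37348217-37348808), shared with the antisense gene Fgf2os, ranked 16957, 18298 and 29670 in WT and 37120, 20887 and 24754 in Pbrm1 cKO. The strongest distal region of all ligands was in an Fgf2 intron, the first sequence of the second group above (chr3:37360489-37361317). It ranked 5380, 6070 and 14976 in WT and 10764, 7685 and 11280 in Pbrm1 cKO, with 31 tags at the summit in WT library 3 and 69 to 93 in the other 5. Both Fgf2 regions overlapped between genotypes. The difference at the intron region was -0.31 ± 0.41 (SE), and -0.77, -0.12 and -0.04 without WT libraries 3, 2 and 1.

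In the subfamily of Fgf3, Fgf7, Fgf10 and Fgf22, no promoter region ranked among the strong ones. The Fgf7 promoter region ranked 34434, 25995 and 37548 in WT and 28762, 47904 and 44732 in Pbrm1 cKO. Fgf7, the keratinocyte growth factor, had 5 distal regions as well. Fgf10 had a single distal region, in the WT list alone, with rank 33305 in WT library 1 and no peak in WT libraries 2 and 3. It ranked 64880, 63782 and 64590 in Pbrm1 cKO, so 4 libraries had a peak there, with 22 tags in WT library 1 and 9, 9 and 8 in Pbrm1 cKO.

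The hormone-like ligands had weak promoters. The best regions ranked on average 38987 for Fgf15 and 40193 for Fgf21, the latter shared with Fut1, and Fgf23 had distal regions only. Among the intracellular ligands, Fgf11, Fgf12 and Fgf13 had promoter regions with mean ranks of 53221, 52866 and 35506, and Fgf14 had none. Fgf5 and Fgf9 had promoter regions with mean ranks of 42844 and 37752. All of these lay beyond the median rank of all promoter regions, 16436.

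Receptor promoters were led by Fgfr1 and Fgfrl1. The Fgfr1 promoter region (chr8:25518609-25519814) ranked 11992, 8904 and 7223 in WT and 10973, 6566 and 5638 in Pbrm1 cKO, and an intronic Fgfr1 region ranked 4762, 6626 and 9699 in WT and 7126, 11020 and 5176 in Pbrm1 cKO. The Fgfrl1 promoter region (chr5:108693793-108694290) ranked 9863, 10827 and 9176 in WT and 9627, 6387 and 11703 in Pbrm1 cKO. Genotypes overlapped at each of these regions. Fgfr2, whose isoforms receive FGF7 and FGF10 in epithelium, had a promoter region with a mean rank of 22543 and 6 other regions, the strongest in an intron with ranks of 10104, 6415 and 15388 in WT and 10769, 15246 and 8375 in Pbrm1 cKO. Fgfr4 had a single region, downstream of the gene.

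The Fgfr3 promoter region (chr5:33721306-33722518) was the receptor promoter with the largest difference. It ranked 17290, 27295 and 14287 in WT and 37916, 32207 and 28257 in Pbrm1 cKO. Every Pbrm1 cKO library ranked it below every WT library, and the difference of -0.79 ± 0.34 (SE) did not pass the test (limma adjusted p = 0.268).

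Among the inhibitors, Spry4 had the best promoter region (chr18:38601242-38601812), with ranks of 6340, 3857 and 7052 in WT and 6822, 4479 and 8135 in Pbrm1 cKO. Spry2 (chr14:105897227-105898100) ranked 15805, 11011 and 7428 in WT and 13546, 13552 and 9390 in Pbrm1 cKO. Spry1 (chr3:37639716-37640696) ranked 12029, 16290 and 16795 in WT and 14419, 12897 and 16962 in Pbrm1 cKO. All 3 feedback inhibitors thus had accessible promoters in both genotypes, with overlapping ranks. The best distal Sprouty region, upstream of Spry2 (chr14:105898644-105899123), ranked 39163, 25384 and 15405 in WT and 19930, 15934 and 21149 in Pbrm1 cKO. The start sites at Spry4 and Spry1 were shared with the annotated genes AC133601.1 and Gm42922.

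The Spred1 promoter region (chr2:117120331-117121329) ranked 19193, 16315 and 7091 in WT and 10173, 14489 and 9488 in Pbrm1 cKO. The Spred2 promoter region (chr11:19923959-19924529) ranked 13229, 13989 and 12661 in WT and 19053, 14726 and 12073 in Pbrm1 cKO. Both overlapped between genotypes. A second Spred2 promoter region, in an intron (chr11:19925043-19926107), ranked 25878, 26024 and 21778 in WT and 42500, 26669 and 38139 in Pbrm1 cKO. There every Pbrm1 cKO library ranked below every WT library, the nearest ranks being 26024 and 26669, with a difference of -0.52 ± 0.32 (SE, limma adjusted p = 0.441). At Spred3 the region counted as its promoter ranked 21685 on average and was shared with the neighbor Ggn. A stronger region beside it lay within 1 kb of a start of Ggn but not of Spred3.

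Base composition at the 5′ end overlapped between genes with and without a promoter region. In 1000 bases around the 5′ end, the ratio of observed to expected CpG had a median of 0.70 over the 23 genes with a promoter region and 0.61 over 10 of the 11 genes without, beside 0.26 over all annotated genes. Fgf3, Fgf4, Fgf8 and Fgf16 had ratios of 0.79, 0.77, 0.79 and 0.78 with no promoter region, near the 0.80 of Fgfr1. Fgf1, with 2 promoter regions, had a ratio of 0.20.

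The comparison of genotypes over all regions found 45 of 66679 regions different (0.0675%, limma with Benjamini-Hochberg adjustment). None of the 111 FGF regions was among them, and the smallest adjusted p was 0.0913. At an unadjusted p under 0.05, 11 FGF regions ranked lower in Pbrm1 cKO (9.91%, beside 8.19% of all regions) and 4 ranked higher (3.6%, beside 7.67%). With normal scores in place of the log2 rank score, 1 FGF region was called, lower in Pbrm1 cKO, beside 1.33% of all regions. In 12 regions every Pbrm1 cKO library ranked below every WT library (10.8%, beside 10.7% of all regions), and in 8 every Pbrm1 cKO library ranked above (7.21%, beside 10.7%). The standard error of an FGF region had a median of 0.31.

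The median difference over the 111 regions was -0.11, beside 0.0022 over all regions, and 62 regions had a negative and 49 a positive value. Over 223 regions within 50 kb of the gene bodies the median turned to 0.0054. The promoter regions had a median of -0.17, with 24 of 34 values negative (70.6%), beside a median of -0.05 and 54.9% negative over all promoter regions. The 68 distal regions had a median of -0.0041, with 34 values on each side. Of the 19 ligand promoter regions, 15 (78.9%) had negative values, also beside 54.9%. The median over 111 regions moved to between -0.10 and -0.04 when a library was left out, with the smallest shifts from 0 without WT library 3 (−0.04) and without Pbrm1 cKO library 3 (−0.04), and to -0.06 and -0.05 without WT libraries 1 and 2.

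**Figure D3:**
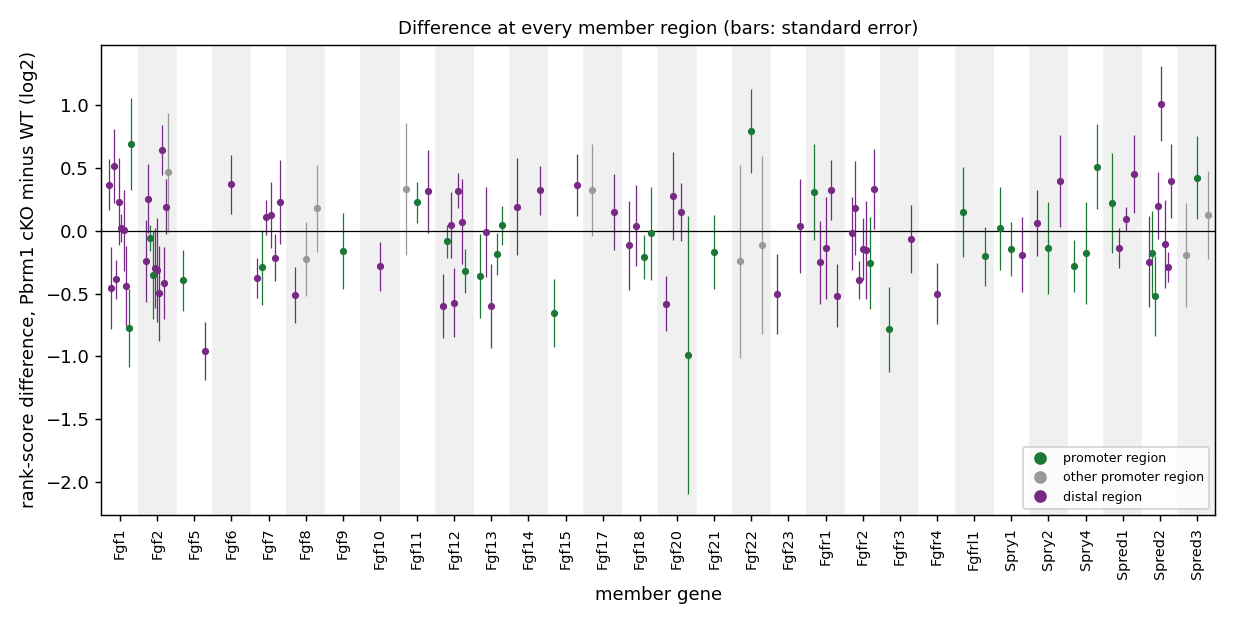
Difference in rank score, Pbrm1 cKO minus WT, on the log2 scale (y axis) for each of the 111 regions, grouped by gene (x axis), with the standard error as bars and colors for promoter regions, regions at promoters of other genes, and distal regions. Values run from -0.99 at the shared Fgf20 promoter, with the widest error and a value of 0.29 without WT library 3, to 1.01 in an intron of Spred2.

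The region with the smallest p lay downstream of Fgf5 (chr5:98284053-98284605), 29.8 kb from the start of this ligand of the FGF4 subfamily, and was in the WT list alone. It ranked 29669, 27370 and 36088 in WT and 54669, 65974 and 59616 in Pbrm1 cKO. The genotypes did not overlap. The summit held 25, 26 and 12 tags in WT and 15, 6 and 11 in Pbrm1 cKO, so tag numbers overlapped at WT library 3. The difference was -0.96 ± 0.23 (SE, limma adjusted p = 0.0913). With normal scores the adjusted p was 0.0364, and over all alternatives it ran from 0.0334 to 0.284. Without WT library 3 the difference was -1.07 (limma adjusted p = 0.0701). The promoter region of Fgf5 ranked 43050, 36460 and 31480 in WT and 53531, 39587 and 52957 in Pbrm1 cKO, with overlap.

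An intronic region of Spred2 (chr11:19947585-19948318), 23.6 kb into the gene of this RAS and ERK inhibitor and in both lists, had the largest positive difference. It ranked 52098, 48146 and 40819 in WT and 18879, 28274 and 23368 in Pbrm1 cKO, all better than in WT. The summit held 18, 18 and 12 tags in WT and 47, 30 and 35 in Pbrm1 cKO. The difference was 1.01 ± 0.30 (SE, limma adjusted p = 0.129). Another Spred2 intron region (chr11:19986911-19987104), in the WT list alone, went the opposite way, with ranks of 55726, 48216 and 53837 in WT and 63292, 62915 and 66062 in Pbrm1 cKO (difference -0.29 ± 0.12, SE). The strongest Spred2 distal region, between the promoter and the gene end, ranked 11091, 7153 and 10272 in WT and 9845, 11593 and 8884 in Pbrm1 cKO.

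An intronic region of Fgf2 (chr3:37377713-37378714) was in the Pbrm1 cKO list alone. It ranked 61768, 64512 and 54256 in WT and 32315, 36847 and 47636 in Pbrm1 cKO, without overlap. The summit held 16, 12 and 9 tags in WT and 37, 29 and 24 in Pbrm1 cKO. The difference was 0.64 ± 0.20 (SE, limma adjusted p = 0.140).

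**Figure D4:**
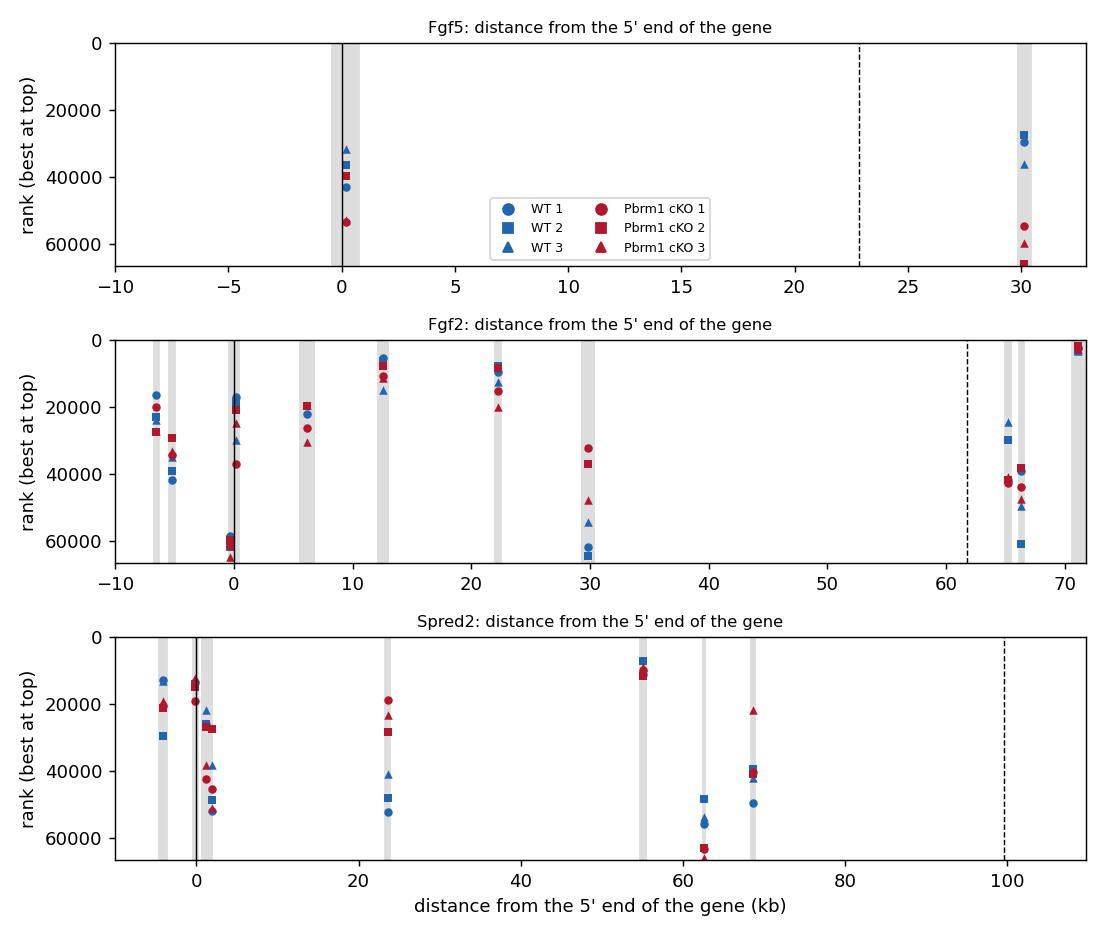
Ranks of all regions at Fgf5, Fgf2 and Spred2 in each library (y axis, rank 1 at the top) against distance from the 5′ end of the gene in kb (x axis). Gray bands are the regions, the solid line is the 5′ end and the dashed line the 3′ end, blue is WT and red is Pbrm1 cKO. The genotypes part at the Fgf5 region 29.8 kb from the start and at the Spred2 region 23.6 kb from the start, while they overlap at the promoter regions of Fgf2 and at the Spred2 promoter region over the start, and not at the second Spred2 promoter region beside it. They also part at the distal Fgf2 regions chr3:37342883-37343393 and chr3:37377713-37378714, higher in Pbrm1 cKO, and at the Spred2 intron region chr11:19986911-19987104, lower in Pbrm1 cKO.

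Of the other 7 regions among the 10 with the smallest p, 6 ranked lower in Pbrm1 cKO. The region downstream of Fgf20 (chr8:40272241-40272654) ranked 42930, 32799 and 36225 in WT and 64880, 47751 and 54918 in Pbrm1 cKO, a difference of -0.58 ± 0.22. An Fgfr2 intron region (chr7:130190688-130190961) ranked 44366, 41800 and 62827 in WT and 65509, 65087 and 61974 in Pbrm1 cKO, where WT library 3, with 5 tags, lay among the Pbrm1 cKO libraries. An Fgf1 intron region (chr18:38881374-38881658) ranked 51938, 48745 and 40651 in WT and 65609, 65523 and 53640 in Pbrm1 cKO. These 3 regions were in the WT list alone, and the difference at the Fgfr2 region was -0.39 ± 0.15 (SE). Without WT library 3 it was -0.58 (limma adjusted p = 0.0903), and the Fgf20 and Fgf1 regions had differences of -0.56 and -0.29.

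The Fgf15 promoter region (chr7:144895743-144896145) ranked 35554, 27407 and 28056 in WT and 42074, 48328 and 52504 in Pbrm1 cKO, a difference of -0.66 ± 0.27 (SE, limma adjusted p = 0.244). The Fgf22 promoter region (chr10:79754950-79755381) ranked 33933, 46747 and 58292 in WT and 32258, 33385 and 16441 in Pbrm1 cKO, a difference of 0.79 ± 0.34 (SE, limma adjusted p = 0.262). Neither pair of genotypes overlapped, and the nearest Fgf22 values, 33933 and 33385, were close. Without WT library 3 the differences were -0.60 at Fgf15 and 0.61 at Fgf22. The Fgf22 difference fell to 0.46 without Pbrm1 cKO library 3, which ranked the region best. Past the 10 smallest p, an unadjusted p under 0.05 was also found at the Fgfr3 promoter and at distal regions of Fgf7, Fgf8 and Fgf12 (2 regions).

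**Figure D5:**
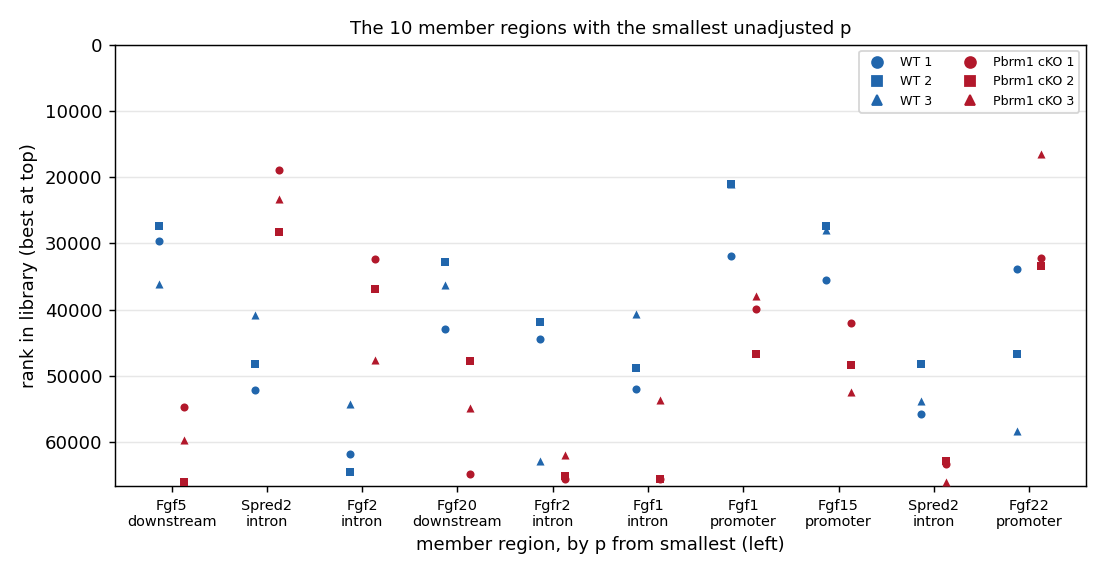
Rank in each library (y axis, rank 1 at the top) of the 10 FGF regions with the smallest unadjusted p, ordered from left to right. Blue is WT, red is Pbrm1 cKO, and symbols give the replicate. Genotypes are fully apart in all but the Fgfr2 intron region, and 7 of the 10 rank lower in Pbrm1 cKO. The regions were picked by their p in this comparison, so their separation is a description only. Over the 111 FGF regions, genotypes were apart at 12 ranked lower (10.8%) and 8 ranked higher (7.21%), each beside 10.7% of all regions.

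Of the 8 distal FGF regions that ranked lower at an unadjusted p under 0.05, 6 held an AP-1 match, beside 39.7% of all windows away from promoters that ranked lower by the same rule. The 3 distal FGF regions that ranked higher held none, beside 45.5%. These regions were picked by their p in the same comparison, so the counts are a description.

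Fgf1, Fgf7, Fgf16, Fgf17, Fgf18 and Fgf21 make up the ligand panel of the study's work on uterine stroma. In these oviductal cells the panel held 23 regions, at 5 of the 6 genes. Their median difference was 0.0026, with 12 values positive and 11 negative, and the smallest adjusted p was 0.233 (limma). In 4 of the 23 every Pbrm1 cKO library ranked below every WT library, and in 1 every one ranked above, each beside 10.7% of all regions. Fgf1 alone held 10 of the 23. Promoter regions were present at 4 of them, Fgf1, Fgf7, Fgf18 and Fgf21.

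The relaxed lists gave 400, 411 and 425 distinct peaks over the 34 windows in WT and 367, 385 and 405 in Pbrm1 cKO, or 412 ± 12.5 and 386 ± 19.0 (SD, n = 3 each). The ranges overlapped. The lists differ in length, and these peaks were 0.190% ± 0.0120 of all intervals in WT and 0.189% ± 0.00742 in Pbrm1 cKO. Peaks were fewer in every Pbrm1 cKO library at Fgf12, Fgf16 and Fgfr2, 3 of 34 genes (beside 3.89% of all genes with a peak), and more at Spred3 alone (beside 2.72%).

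At Fgf16, a ligand with no IDR region, there were 7, 6 and 6 relaxed peaks in WT and 3, 5 and 4 in Pbrm1 cKO. At Fgfr2 there were 24, 23 and 24 in WT and 18, 19 and 20 in Pbrm1 cKO. At Spred3 there were 6, 5 and 5 in WT and 9, 8 and 10 in Pbrm1 cKO. Fgf3, Fgf4 and Spry3, the other genes without a region, had 1 to 4 relaxed peaks per library, and at Spry3 none of them was within 1 kb of a start.

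The pathway beyond the 34 genes was read from a list of 40 genes for docking proteins, co-receptors, feedback targets and kinases. They held 200 regions, none of which passed the test (smallest adjusted p = 0.0872, limma), with 18 higher (9%, beside 7.67% of all regions) and 8 lower (4%, beside 8.19%) in Pbrm1 cKO at an unadjusted p under 0.05. Promoter regions were present at 34 of the 40 genes. Missing were the Klotho co-receptors Kl and Klb, Flrt1, Sdc3, Fgfbp1 and Ndst1. With normal scores 5 regions were called (2.5%, beside 2.33% of all regions), higher in Pbrm1 cKO in the windows of Fgfbp3, Sos1, Sdc4 and Hs6st1 and lower at Map2k2.

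Feedback targets of FGF signaling had strong promoters. Etv5, an ETS factor induced by FGF, had a promoter region with ranks of 1018, 831 and 809 in WT and 944, 1789 and 766 in Pbrm1 cKO. Dusp6, the ERK phosphatase, had a promoter region that ranked 3494, 8055 and 7939 in WT and 2277, 2706 and 1907 in Pbrm1 cKO. Every Pbrm1 cKO library ranked the Dusp6 region better than every WT library, with a difference of 1.42 ± 0.45 (SE, limma adjusted p = 0.150), whereas the Etv5 ranks overlapped. A second Dusp6 promoter region (chr10:99261221-99262484) was apart in the same direction, with a difference of 0.65 ± 0.32 (SE, limma adjusted p = 0.335). Such separation, with both Dusp6 regions included, was found at 4 of 37 regions of the feedback group (10.8%, beside 10.7% of all regions), and the reverse at 0. The median difference of the group was -0.06. The median of the best promoter rank was 5897 for the feedback group and 2994 for the kinases. The ligands had 36843, and all genes with a promoter region had 9516.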

How the data were processed

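ATAC-seq libraries of 3 WT and 3 Pbrm1 cKO samples were analysed from the deposited peak lists. Per the labels and the study's methods, the authors trimmed reads with cutadapt, aligned them with Bowtie2 to GRCm38, called peaks with MACS2 and filtered each genotype's peaks by IDR. The deposited files give, for each peak, the fold enrichment over background at the summit (a ratio), the −log10 p of MACS2 and the summit offset. The files used here hold peaks and not read counts, so the count test of the study was not run and depth over a region is unknown. In 2 libraries, 135 and 86 peaks held the summit as a position, which was converted.

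Intervals of the IDR lists were merged where they overlapped by at least 1 bp. Peaks of each library were collapsed to distinct intervals, and regions were ranked by the best −log10 p, with tied regions sharing the worst of their ranks. Tags at a summit were solved from the fold and the Poisson p. Rank scores were compared with limma 3.58.1 (R 4.3.3, lmFit and eBayes with trend, genotype only) over all 66679 regions, with Benjamini-Hochberg adjustment and a threshold of 0.05. It was tested on simulated data. Replicate numbers occur in both genotypes, and the labels do not say whether same-numbered libraries were prepared together. Deviations of same-numbered libraries correlated at -0.0026, -0.055 and 0.0098. These correlations cannot decide whether the numbers pair the libraries, and a fit with a replicate block was run as an alternative. Gene models were GENCODE M21 basic transcripts on GRCm38. The Fgfr2 transcript that runs far beyond the gene was left out, and Spry3 was read on its unplaced scaffold. Sequences came from the RefSeq GRCm38.p6 genome with pysam 0.24.0.

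Named regions were those past the threshold, the 10 with the smallest p, regions of a single list without any peak in the other genotype (none occurred), the best distal region of each group and the best promoter region of each gene. Other regions, genes and relaxed peak counts given singly were named after their values were seen. The 34 genes and the lists of pathway and marker genes were chosen with earlier results of these data known.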

Additional observations from a re-analysis of the deposited data

How the results depend on the processing

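The count of FGF regions past the threshold stayed at 0 in either direction under ranking by fold, regions with a peak in all 6 libraries, the upper part by mean score, the replicate block and each left-out library. With normal scores it was 1 lower (the Fgf5 downstream region), also with the replicate block. Without WT replicate 3, normal scores called 1 higher (Spred2 intron) and 2 lower (Fgf5, Fgfr2), and without any of the other 5 libraries they called 0, so these calls ranged from 0 to 2. Normal scores with a replicate block, ranked by fold or with a library left out were added after seeing the data. With the replicate block the median difference was -0.11, as without it, and the block changed no other call. Over gene bodies with 50 kb the median turned to 0.0054, and with each library left out it ran from -0.10 to -0.04 (normal scores, -0.06 to -0.02). The shared Fgf20 promoter region ran from -2.59 to 0.29 over left-out libraries, the latter without WT replicate 3 (normal scores 0.13). Several distal regions with differences near 0 changed sign: the Fgfr1 intron region (-0.40 to 0.15 over left-out libraries) to 0.11 and 0.15 without WT replicate 1 and without Pbrm1 cKO replicate 2 (normal scores 0.042 and 0.063), the strongest Spred2 distal region (-0.23 to 0.087) without WT replicate 2 (normal scores 0.038, and 0.0026 without Pbrm1 cKO replicate 2), and the strongest Fgf2 distal region to 0.0028 with normal scores without WT replicate 1. Regions in both lists, in the WT list alone and in the Pbrm1 cKO list alone numbered 37, 4 and 8 in the stronger part of each list, and 165, 26 and 32 with 50 kb, while gene bodies alone held 50 in both lists, as wider and narrower windows hold more and fewer regions. Promoter regions were found at 15 genes in the stronger part of the lists. The difference in relaxed peaks, -26.3, was -1.67 among the 100000 best-ranked intervals and -36.0 to -17.0 with each library left out. The summits of most of these regions held few tags, which limits what differences can be detected.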
